A study of Mus musculus with 8 samples.

Results

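Antigen presentation in the skin was followed through 10 genes chosen by name out of the 22740 protein-coding genes listed for 8 libraries of mouse dorsal skin. They were Cd207 and Epcam, which mark Langerhans cells, the MHC class II genes H2-Aa, H2-Ab1 and H2-Eb1 with the invariant chain Cd74, the class II transactivator Ciita, the integrin Itgax (CD11c), and the costimulatory ligands Cd80 and Cd86. All 10 were counted in every library, and all 10 were among the 15163 genes that passed the filter on low counts. The mice were female BALB/c mice on a low-fibre diet, 6 to 8 weeks old. Each mouse gave 1 library, and there were 4 groups of 2 mice. Baseline CTL mice (replicates 1 and 2) drank water and received no allergen, and baseline butyrate mice (replicates 1 and 3) drank 400 mM sodium butyrate and received no allergen. Lesional CTL mice (replicates 4 and 5) drank water and received house dust mite extract (HDM) on the skin, 15 µg in each of 4 exposures over 2 weeks. Lesional butyrate mice (replicates 3 and 4) received the same exposures and butyrate in the water from before the first exposure onwards. Each group was thus a pair of mice, and the labels give the baseline mice another leading number than the lesional mice, so that HDM exposure and a difference between these sets of mice cannot be told apart.

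Langerhans cells are the dendritic cells of the epidermis. They carry langerin, the C-type lectin encoded by Cd207, and the surface protein EpCAM. They sit between keratinocytes and take allergen to the lymph node after contact with it. There they show peptides to CD4 T cells on MHC class II, a dimer of an α and a β chain (H2-Aa with H2-Ab1 for I-A, and H2-Eb1 as the β chain of I-E) that is held and guided by the invariant chain CD74 until it is loaded. CIITA is the coactivator without which class II genes are hardly transcribed, and CD80 and CD86 deliver the second signal to CD28 on the T cell. None of the 10 genes belongs to Langerhans cells alone. Epcam is also made by follicle keratinocytes, class II genes by dermal dendritic cells, macrophages and B cells, and Itgax by dermal dendritic cells. The authors used EpCAM as a surface marker to sort epidermal keratinocytes, so that Epcam is not a marker of Langerhans cells by itself. In bulk skin, fewer cells of a type and less RNA per cell cannot be told apart.

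Class II genes are read together through a shared promoter layout in which an X box, bound by the RFX complex, precedes a Y box, bound by NF-Y, and CIITA docks on the factors bound there. Promoters of class II genes and of Cd207 are shown for this layout, and its part in the levels measured here was not tested. The sequences are the 150 bases before the start of each gene, 5′ to 3′ on the strand of the gene, from RefSeq on GRCm38.p6, the C57BL/6J reference. H2-Aa lies at chr17:34287824-34287973 on the minus strand, H2-Eb1 at chr17:34305717-34305866 on the plus strand, H2-DMb1, a class II gene of peptide loading, at chr17:34153041-34153190 on the plus strand, and Cd207 at chr6:83677858-83678007 on the minus strand. Capitals mark the letters GNAAC, the core of the X box, and the Y box letters ATTGG.
H2-Aa: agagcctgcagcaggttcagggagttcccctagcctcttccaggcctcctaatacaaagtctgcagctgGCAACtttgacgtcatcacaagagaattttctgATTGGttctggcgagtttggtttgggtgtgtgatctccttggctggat
H2-Eb1: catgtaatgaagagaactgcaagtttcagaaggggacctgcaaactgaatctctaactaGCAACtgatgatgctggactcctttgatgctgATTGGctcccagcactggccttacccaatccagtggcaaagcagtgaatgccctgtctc
H2-DMb1: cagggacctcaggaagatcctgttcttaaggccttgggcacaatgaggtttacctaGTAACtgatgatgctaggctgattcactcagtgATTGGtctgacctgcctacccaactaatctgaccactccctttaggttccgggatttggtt
Cd207: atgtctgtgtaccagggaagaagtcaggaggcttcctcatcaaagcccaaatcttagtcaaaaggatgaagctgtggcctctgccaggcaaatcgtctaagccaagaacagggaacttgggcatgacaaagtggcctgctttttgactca

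In H2-Aa the X core began 81 bases before the start and the Y box 48 bases before it, 33 bases apart. In H2-Eb1 they began 91 and 59 bases before the start, 32 bases apart, and in H2-DMb1 94 and 61 bases before it, 33 bases apart. The stretch of Cd207 held no such pair. An ordered pair with 20 to 40 bases between the 2 positions, on the strand of the gene, was found in 1.74% of the 32851 RefSeq windows of 250 bases before to 50 bases after a start, and in 3.51% on either strand. The full X1 box letters CCNNGNAAC were in 15.1% of windows and ATTGG alone in 37.4%, on either strand. GNAAC is the end of CCNNGNAAC, so that these matches overlap. The full X1 letters and ATTGG were the motifs planned. The windows of H2-Oa, H2-Ob and H2-DMb1 held the full X1 letters, and those of H2-Aa, H2-Eb1 and H2-Eb2 did not. Full X1 letters without the pair were in a window each of H2-DMa, Rfx5, Nfyc and Lgmn. The pair was chosen after these windows were seen, so that its presence in these genes is a description and no test. Of the 9 members outside chromosome 18, 6 had a window and 2 of these (H2-Aa and H2-Eb1) held the pair. Of 18 other genes of the class II pathway, 16 had a window and 4 held it (H2-Oa, H2-Ob, H2-DMb1 and H2-Eb2). H2-Ab1, Ciita and Cd86 were not matched.

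On GRCm38 in GENCODE vM21, H2-Ab1 (ENSMUSG00000073421, chr17:34257689-34269419), H2-Aa (ENSMUSG00000036594, chr17:34282744-34287823) and H2-Eb1 (ENSMUSG00000060586, chr17:34305867-34316674) lie beside each other. Epcam (ENSMUSG00000045394, chr17:87635979-87651129) is on the same chromosome. Cd74 (ENSMUSG00000024610) is at chr18:60803848-60812652, Cd207 (ENSMUSG00000034783) at chr6:83671215-83677857, and Itgax (ENSMUSG00000030789) at chr7:128129547-128150657. Chromosome 16 holds Ciita (ENSMUSG00000022504, chr16:10480059-10528418), Cd86 (ENSMUSG00000022901, chr16:36603869-36666081) and Cd80 (ENSMUSG00000075122, chr16:38455561-38496335). Reads were counted over whole genes.

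The libraries held 18004136 to 21085544 counts, so that 3 counts, used as the floor, were worth 0.138 to 0.169 CPM (counts scaled to a common library size, adjusted by TMM). A library that stood apart has to be named before any result. Baseline butyrate replicate 3 differed from its group partner by more than 2-fold in 26.5% of the 14198 tested genes with a mean of at least 1 CPM, against 1.43 to 4.81% of genes in the other 3 pairs. Genes of the growing hair follicle summed to 17620 CPM in it and to 23.3 to 32.6 CPM in the other baseline libraries, and all 11 of 11 were above the other baseline libraries. Trichohyalin (Tchh) alone stood at 6309 CPM in that library. Skeletal muscle genes summed to 7760 CPM against 28970 to 37470 CPM, interfollicular keratinocyte genes to 8636 CPM against 17470 to 19360 CPM, and macrophage genes to 450.3 CPM against 968.1 to 1754 CPM. The conventional dendritic cell list was at 63.7 CPM against 163.2 to 276.8 CPM, with 11 of 11 genes lower.

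The same library was the lowest of the baseline libraries for 9 of the 10 genes, while 44.6% of all tested genes were lower in it and 42.1% higher than in the other 3. Its ratio to the mean of the other 3 baseline libraries was 0.253 for Cd207, 0.307 for H2-Aa, 0.328 for H2-Ab1, 0.27 for H2-Eb1 and Cd74, and 0.26 for Ciita. Itgax was at 0.233 of that mean, Cd80 at 0.206 and Cd86 at 0.301. Epcam was the exception at 1.51 times the mean, which made it the highest of the 4. MHC class I genes went the way of class II in this library, at 1352 CPM against 3406 to 3680 CPM. The part of hair growth in these low values was not tested. The fitted values of the 10 genes, the correlations between them and the calls in the gene lists for HDM in CTL mice and for butyrate in lesional skin are given with and without it.

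**Figure D1:**
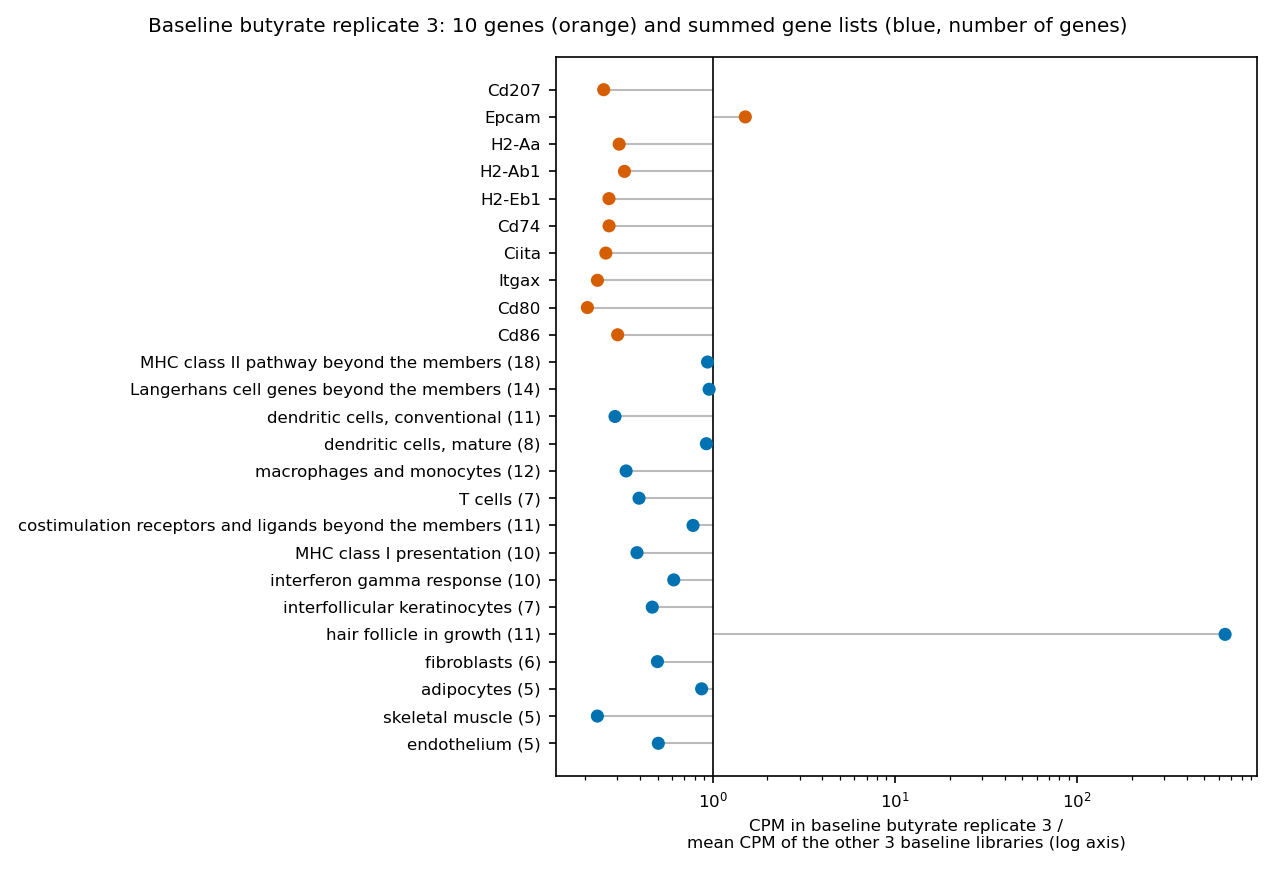
Level in baseline butyrate replicate 3 divided by the mean of the other 3 baseline libraries, on a log axis, for the 10 genes (orange) and for summed gene lists (blue, number of genes in parentheses). Cd80 at 0.206 is the lowest of the 10 genes, Epcam at 1.51 the only one above 1, and the hair follicle list lies at 649.5.

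HDM exposure was examined as lesional CTL against baseline CTL skin, a comparison in which replicates were close to each other. The class II genes were 1.43 to 1.54 times their baseline level, Ciita 1.72 times, Cd86 1.89 times and Cd80 2.74 times, while Cd207 was at 0.833 of its baseline level with wide spread. With the spread of all 8 libraries none of these differences passed the test. Without baseline butyrate replicate 3, which is in neither group, 8 of the 10 genes did at an FDR below 0.1, as did 18.8% of all genes tested in the higher direction.

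H2-Aa, the α chain of I-A, was at 285.1 and 277.3 CPM in baseline CTL replicates 1 and 2 and at 437.3 and 423.5 CPM in lesional CTL replicates 4 and 5. Its partner H2-Ab1 was at 237.5 and 255.6 CPM, and at 367.1 and 360.4 CPM. For H2-Eb1 the values were 182.2 and 194.2 CPM against 272.3 and 266.0 CPM. In all 3 genes the groups were far apart relative to the spread within a pair, as in H2-Ab1, where the group values were 246.6 ± 12.8 and 363.8 ± 4.76 CPM (mean ± SD, n = 2 each). Cd74, the invariant chain, was at 455.0 and 481.2 CPM at baseline and at 717.3 and 725.7 CPM after HDM. Per kilobase of merged exons, Cd74 had the highest level of the 10 in baseline CTL skin, 278.8 CPM per kb. H2-Eb1 and H2-Ab1 came next at 96.8 and 96.0 CPM per kb, then Epcam at 83.9 and H2-Aa at 74.0 CPM per kb. The alleles of BALB/c class II genes differ from the reference, which was the same for all mice, so that levels between these genes are less sure than the same gene's levels between groups.

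Ciita, the transactivator, was at 13.6 and 10.55 CPM in baseline CTL and at 20.6 and 20.8 CPM in lesional CTL skin. Itgax, a surface integrin of dendritic cells, was at 17.3 and 13.2 CPM against 24.8 and 20.2 CPM. Both were higher in each lesional CTL library than in each baseline CTL library. Cd86 was at 8.502 and 11.3 CPM at baseline and at 18.95 and 18.6 CPM after HDM. Cd80, the least abundant of the 10, was at 1.28 and 1.39 CPM against 3.10 and 4.20 CPM, 0.360 and 0.985 CPM per kb on average. The 2 costimulatory ligands thus had the largest ratios of the 10 genes in this comparison.

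Cd207 did not go with them. It was at 34.95 and 30.7 CPM in baseline CTL skin and at 19.2 and 35.5 CPM in lesional CTL replicates 4 and 5, so that one mouse was below and the other above both baseline CTL mice. Epcam was at 202.6 and 165.9 CPM at baseline and at 273.4 and 242.0 CPM after HDM, higher in both lesional mice.

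In total, 9 of the 10 genes, Cd207 being the exception, were higher in both lesional CTL libraries than in both baseline CTL libraries. Of all tested genes 36.7% were higher and 38.5% lower in that way. In edgeR's quasi-likelihood fit of all 8 libraries 0 of the 10 genes were called (FDR below 0.1 and more than 2-fold), against 2.37% of tested genes called higher and 1.21% called lower. None of the 10 had an unadjusted p below 0.05 there, and DESeq2 and limma-voom also called 0. The log2 fold changes were 0.61 (SE 0.53, FDR 0.536) for H2-Aa, 0.56 (SE 0.51, FDR 0.552) for H2-Ab1, 0.52 (SE 0.58, FDR 0.635) for H2-Eb1 and 0.62 (SE 0.60, FDR 0.569) for Cd74 in edgeR. Cd80 had 1.45 (SE 0.75, FDR 0.335), Cd86 0.92 (SE 0.60, FDR 0.42), Ciita 0.78 (SE 0.63, FDR 0.507), Itgax 0.56 (SE 0.64, FDR 0.638), Epcam 0.48 (SE 0.30, FDR 0.406) and Cd207 -0.26 (SE 0.64, FDR 0.837). The median of the 10 log2 fold changes was 0.59, and that of all tested genes was -0.02.

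The standard errors of that fit were set by the spread of all 4 pairs, of which the baseline butyrate pair differed by 3.46- to 4.33-fold in the class II genes and the other 3 pairs by at most 1.08-fold. When baseline butyrate replicate 3 was left out, the standard errors were 0.098 to 0.32 and edgeR gave H2-Aa 0.61 with a 95% interval of 0.37 to 0.86 (FDR 0.0102). H2-Ab1 had 0.56 (0.32 to 0.81, FDR 0.0128), H2-Eb1 0.52 (0.28 to 0.75, FDR 0.0146) and Cd74 0.63 (0.33 to 0.92, FDR 0.0158). Cd86 had 0.92 (0.51 to 1.34, FDR 0.0138), Ciita 0.78 (0.40 to 1.16, FDR 0.0168), Cd80 1.45 (0.67 to 2.23, FDR 0.0227) and Itgax 0.56 (0.12 to 1.00, FDR 0.0646). Epcam at an FDR of 0.15 and Cd207 at 0.554 did not pass in edgeR. An FDR below 0.1 with a higher level was thus reached by 8 of the 10 genes and by 18.8% of all 15349 genes tested in that fit. With the fold threshold only Cd80 was called, against 6.33% of tested genes called higher. A fit of the 4 CTL libraries alone gave an FDR of 0.00379 to 0.0461 for 9 of the 10 genes, against 24.9% of 14863 tested genes, with Cd207 at 0.526.

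**Figure D2:**
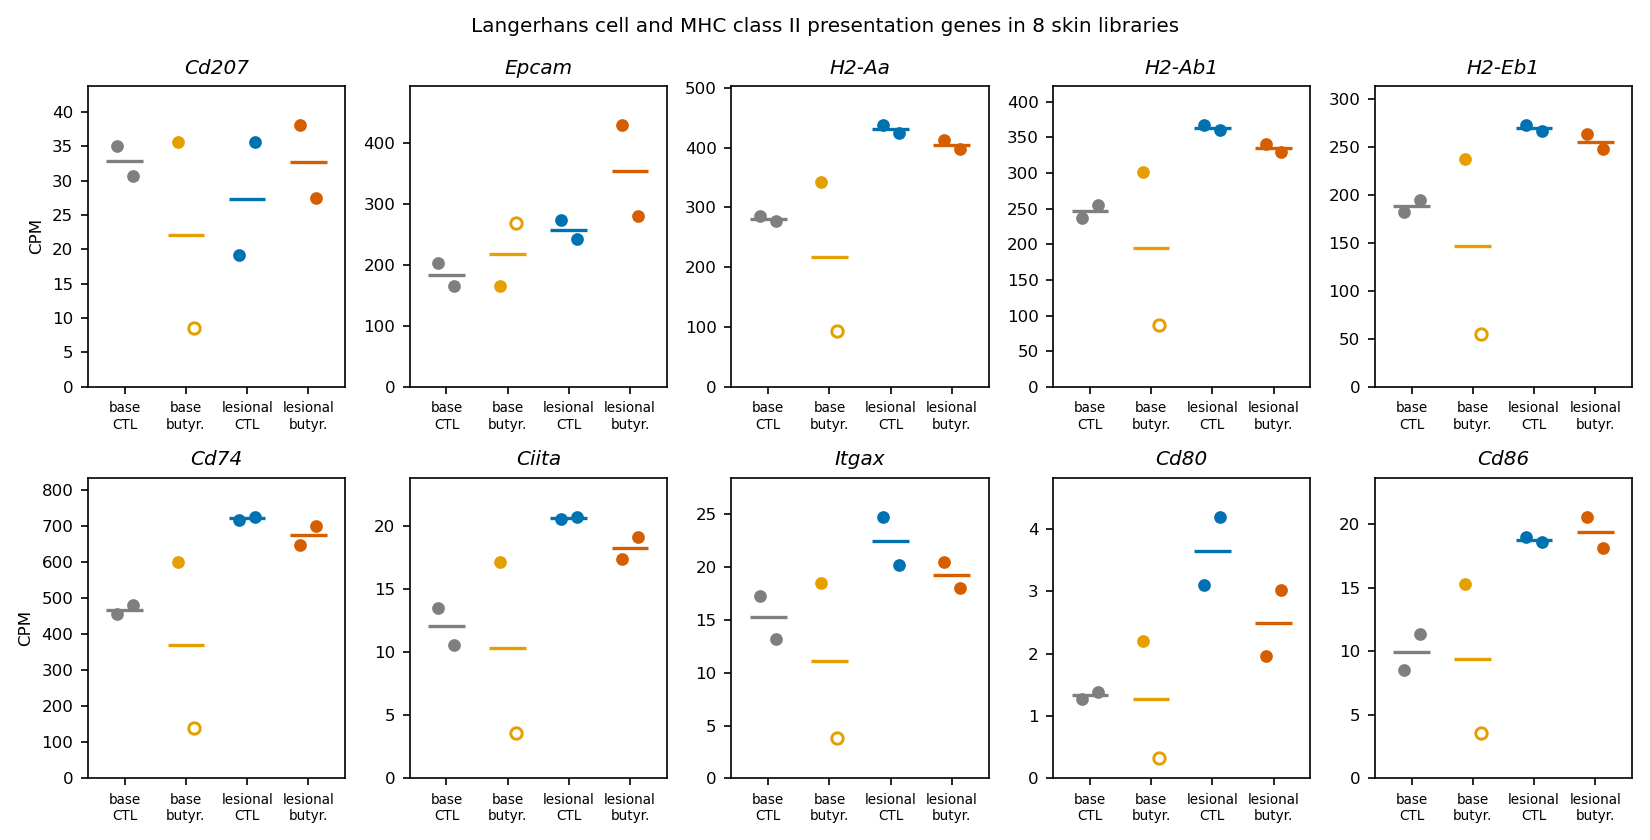
Level of each of the 10 genes in CPM (linear axes from 0) in each of the 8 libraries, by group, with lines at the group means and baseline butyrate replicate 3 as the open symbol. The lesional CTL libraries of the class II genes lie above the baseline CTL libraries, as in Cd74 with 717.3 and 725.7 against 455.0 and 481.2 CPM, and the open symbol is lowest in 9 of the 10 panels.

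Butyrate in HDM-exposed skin was examined as lesional butyrate against lesional CTL. Class II levels in the 2 groups were within 10% of each other. H2-Aa was at 411.9 and 397.3 CPM in lesional butyrate replicates 3 and 4, H2-Ab1 at 340.1 and 329.9 CPM, and H2-Eb1 at 263.1 and 247.1 CPM. Cd74 was at 647.2 and 700.7 CPM. Each of these values lay under both lesional CTL values and above every baseline CTL value. The ratio of group means was 0.94 for H2-Aa, 0.921 for H2-Ab1, 0.948 for H2-Eb1 and 0.934 for Cd74.

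Ciita was at 17.4 and 19.2 CPM, a ratio of 0.884 to lesional CTL, and Itgax at 20.5 and 18.05 CPM, a ratio of 0.857. Cd80 was at 1.96 and 3.02 CPM and had the lowest ratio, 0.683, on counts that were small in every library. Cd86 was at 20.6 and 18.1 CPM, on either side of the lesional CTL pair, a ratio of 1.03. Cd207 was at 38.0 and 27.45 CPM, and the 19.2 and 35.5 CPM of lesional CTL overlapped with this range. Epcam was at 429.7 and 280.7 CPM, above both lesional CTL values, a ratio of 1.38. Interfollicular keratinocyte genes summed to 20740 and 18900 CPM in these libraries against 14330 and 13370 CPM in lesional CTL skin, and their part in the Epcam value was not tested.

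Of the 10 genes 6 were lower in both lesional butyrate libraries than in both lesional CTL libraries (H2-Aa, H2-Ab1, H2-Eb1, Cd74, Ciita and Cd80), against 22.5% of all tested genes, and 1 (Epcam) was higher, against 22.4%. No gene of the 10 was called in edgeR, and 0% of all tested genes were called in either direction (smallest FDR 0.289, with 734 genes at an unadjusted p below 0.05). The FDR was 1 for all 10, none had an unadjusted p below 0.05, and DESeq2 and limma-voom called none of the 10. The log2 fold changes ran from -0.55 (SE 0.72) for Cd80 to 0.46 (SE 0.30) for Epcam, with a median of -0.09 beside -0.01 over all tested genes. The sizes that these data allow were narrower when only the 4 lesional libraries were fitted in edgeR, with FDRs of 0.504 to 0.932. The 95% interval of the log2 fold change was then -0.40 to 0.22 for H2-Aa, -0.41 to 0.18 for H2-Ab1, -0.36 to 0.20 for H2-Eb1, -0.46 to 0.27 for Cd74 and -0.50 to 0.14 for Ciita. For Cd80 it was -1.39 to 0.29, for Cd86 -0.30 to 0.38, for Itgax -0.63 to 0.19, for Cd207 -0.61 to 1.12 and for Epcam -0.14 to 1.06. Decreases of the class II genes larger than these bounds lie outside the intervals of that fit, and smaller ones lie inside them. In the fit of all 8 libraries the intervals were wider. They were -1.379 to 1.201 for H2-Aa, -1.349 to 1.112 for H2-Ab1, -1.49 to 1.335 for H2-Eb1 and -1.537 to 1.341 for Cd74. The bounds thus depend on which libraries set the spread, and with 2 mice per group no power was calculated.

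**Figure D3:**
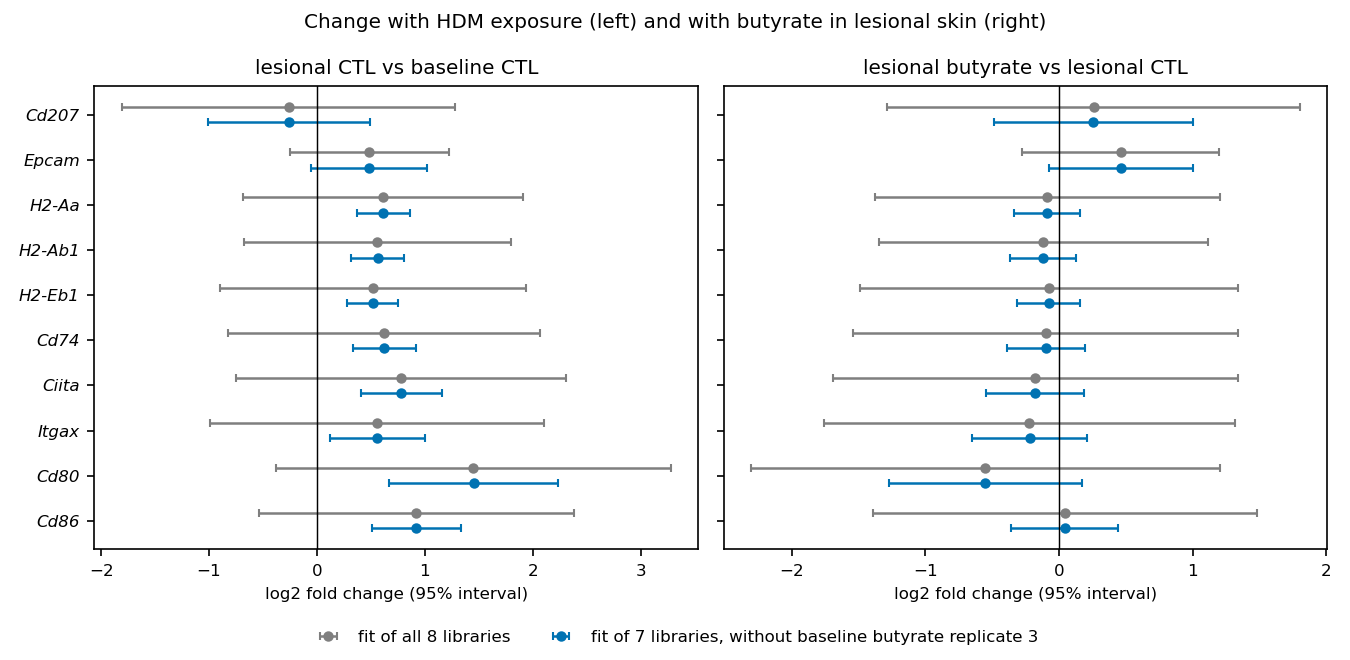
Log2 fold change of each of the 10 genes with its 95% interval from edgeR, for lesional CTL against baseline CTL (left) and lesional butyrate against lesional CTL (right), in the fit of all 8 libraries (grey) and of the 7 libraries without baseline butyrate replicate 3 (blue). The blue intervals of 8 genes lie above 0 on the left, such as 0.37 to 0.86 for H2-Aa, and all intervals on the right include 0.

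Butyrate without allergen was examined as baseline butyrate against baseline CTL, where the 2 butyrate mice lay on opposite sides of the CTL mice for most of the genes. Replicate 1 had 598.8 CPM of Cd74 and replicate 3 had 138.3 CPM, against 455.0 and 481.2 CPM in CTL skin. H2-Aa was at 343.0 and 92.7 CPM, H2-Ab1 at 301.3 and 87.0 CPM, and H2-Eb1 at 237.6 and 55.3 CPM. Replicate 1 thus had the highest class II level of the baseline libraries and replicate 3 the lowest. Ciita was at 17.2 and 3.57 CPM, Itgax at 18.5 and 3.81 CPM, Cd86 at 15.3 and 3.53 CPM, and Cd80 at 2.20 and 0.333 CPM. Cd207 was at 35.6 and 8.53 CPM, with replicate 1 close to the CTL mice. Epcam, at 166.0 and 269.3 CPM, ran the other way.

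In this comparison 0 of the 10 genes had groups that did not overlap, against 13.8% of tested genes higher and 15.9% lower. edgeR called 0 of the 10 and 0% of all tested genes in either direction, with FDRs of 0.741 to 0.965 for the 10 genes, none at an unadjusted p below 0.05, and 529 of all tested genes at such a p. Log2 fold changes were -0.57 for Cd207, -0.35 for Cd74 and -0.08 for Cd86, with a median of -0.35 over the 10 genes and 0.00 over all tested genes. Which mouse was kept decided the sign. Without replicate 3 the values were 0.29 for H2-Aa, 0.36 for Cd74, 0.51 for Ciita, 0.62 for Cd86 and 0.72 for Cd80, with an FDR of 1 for all 10 genes in edgeR and 4 of them at an unadjusted p below 0.05. Without replicate 1 they were -1.61 for H2-Aa, -1.76 for Cd74 and Ciita, -1.49 for Cd86 and -1.98 for Cd80, and 9 of the 10 genes were called. With 1 mouse left in the group, that mouse is assumed to vary like the others.

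HDM in butyrate-treated mice was examined as lesional butyrate against baseline butyrate. The log2 fold changes were 0.57 for Cd207, 0.71 for Epcam, 0.79 for H2-Ab1, 0.80 for H2-Eb1, 0.87 for Cd74, 0.89 for H2-Aa, 0.99 for Cd80 and 1.04 for Cd86, and those of Itgax and Ciita were 0.79 and 0.82. Both lesional butyrate libraries were above both baseline butyrate libraries in 7 of the 10 genes (not in Cd207, Itgax and Cd80), against 15.7% of tested genes higher and 16.9% lower. In edgeR 0 of the 10 were called, at FDRs of 0.395 to 0.759 and none at an unadjusted p below 0.05, against 0.277% of tested genes called higher and 0.0725% called lower, and DESeq2 and limma-voom called none of the 10. Without baseline butyrate replicate 3 the values were 0.24 for H2-Aa, 0.15 for H2-Ab1, 0.10 for H2-Eb1 and 0.17 for Cd74, and the sign of Cd207 turned to -0.12. In that fit Epcam was at 1.10 with a 95% interval of 0.41 to 1.79 (FDR 0.0802, edgeR), the only gene of the 10 with an FDR below 0.1, against 7% of tested genes with a higher level.

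The difference between the butyrate effects in lesional and baseline skin ranged from -0.46 for Cd80 to 0.83 for Cd207 on the log2 scale. edgeR called 0 of the 10, with FDRs of 0.852 to 0.992, and 0% of all tested genes in either direction. None of the 10 had an unadjusted p below 0.05. Without baseline butyrate replicate 3 the differences were -0.69 for Ciita, -0.45 for Cd74, -0.41 for H2-Ab1 and H2-Eb1, -0.38 for H2-Aa and, the largest, -1.27 for Cd80, with FDRs of 0.525 to 0.971 in edgeR. An unadjusted p below 0.05 was then found for 4 of the 10 genes (Ciita, H2-Ab1, H2-Eb1 and Cd80). The comparisons above share libraries, so that their values are not separate evidence.

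Counts within 1 library can be set against each other without any scaling between libraries. The class II genes kept close ratios. H2-Aa was 1.07 to 1.21 times H2-Ab1 in all 8 libraries, and Cd74 was 1.88 to 2.12 times H2-Ab1 in all but baseline butyrate replicate 3, where it was 1.59 times. H2-Eb1 was 0.738 to 0.788 of H2-Ab1 outside that library and 0.635 in it, and Ciita was 0.0411 to 0.0581 of H2-Ab1. The library that stood apart had lower CPM of all 4 class II genes, which these ratios alone cannot show. By the ratios, Cd74 and H2-Eb1 were somewhat lower relative to H2-Ab1 in it than in the other libraries.

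The ratio of H2-Ab1 to Cd207 varied more. It was 6.80 and 8.33 in baseline CTL, 8.46 and 10.2 in baseline butyrate, 19.2 and 10.1 in lesional CTL, and 8.94 and 12.0 in lesional butyrate skin. Lesional CTL replicate 4 had the highest ratio, lesional butyrate replicate 4 was also above every baseline library, and the other 2 lesional libraries lay between the baseline butyrate mice. Cd207 relative to Itgax was 2.02, 2.32, 1.93 and 2.24 in the 4 baseline libraries, and 0.774, 1.76, 1.86 and 1.52 in the 4 lesional ones, so that all lesional libraries lay below all baseline libraries, including baseline butyrate replicate 3. In that library Cd207 and Itgax, both lower there in CPM, thus kept about the same proportion to each other as in the other baseline libraries. Cd80 relative to Cd86 was 0.163 and 0.226 in lesional CTL, 0.0951 and 0.167 in lesional butyrate, and 0.0946 to 0.15 in baseline libraries. Cd86 relative to H2-Ab1 was 0.0358, 0.0443, 0.0507 and 0.0405 in the baseline libraries and 0.0516, 0.0516, 0.0605 and 0.0549 in the lesional ones, in the order of CTL and then butyrate, again with no overlap. The nearest libraries were close in both cases. Cd86 to H2-Ab1 was 0.0507 in baseline butyrate replicate 1 and 0.0516 in lesional CTL skin. Cd207 to Itgax was 1.93 in baseline butyrate replicate 1 and 1.86 in lesional butyrate replicate 3. The other ratios calculated overlapped between baseline and lesional libraries, and the share of all gene pairs without overlap was not calculated. These ratios were not planned, they are descriptions, and no test was run on them.

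**Figure D4:**
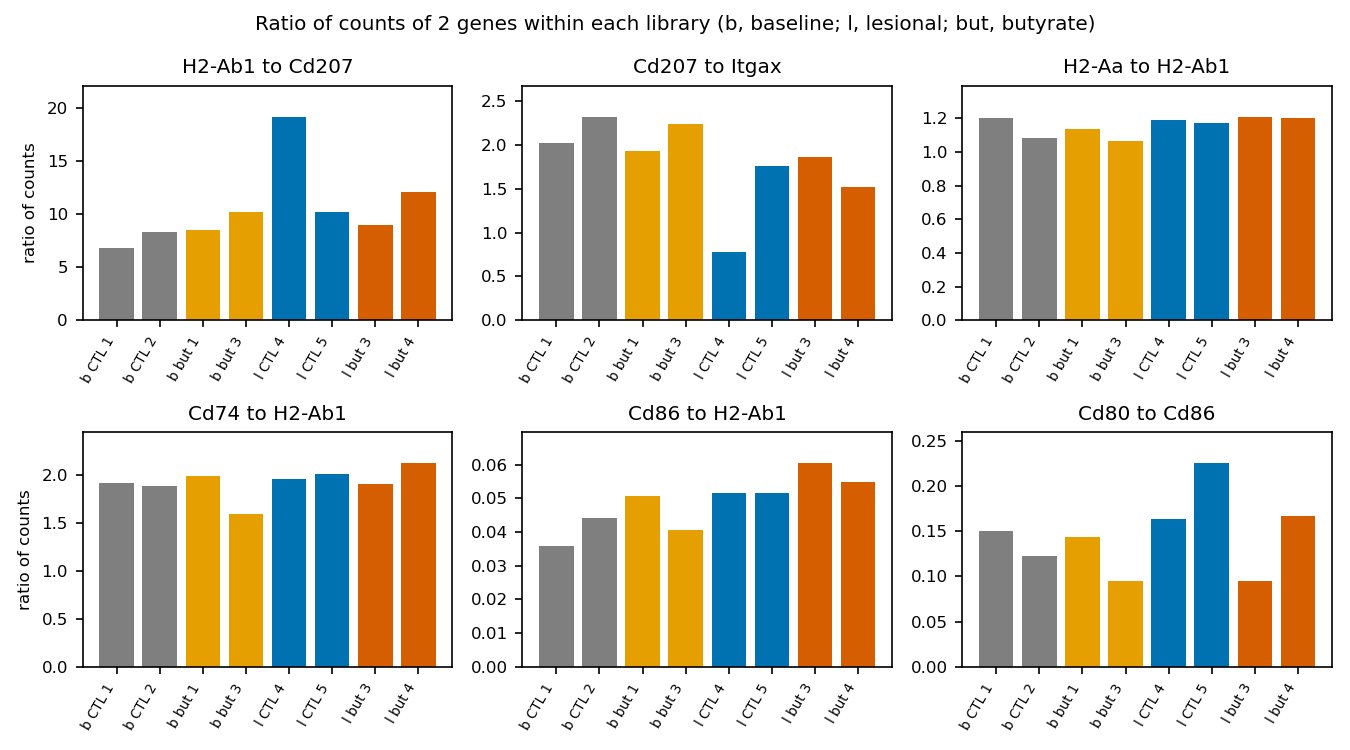
Ratios of counts within each library, with each bar a library, coloured by group, on linear axes from 0. H2-Aa to H2-Ab1 stays between 1.07 and 1.21 in all 8 libraries, and H2-Ab1 to Cd207 reaches 19.2 in lesional CTL replicate 4.

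Over the 8 libraries the 4 class II genes correlated with each other at Pearson's r of 0.995 to 0.998 on log2(CPM + 1). Ciita correlated with them at 0.977 to 0.988, Itgax at 0.974 to 0.983, Cd86 at 0.96 to 0.97 and Cd80 at 0.877 to 0.909. Cd207 was lower at 0.792 to 0.825, and Epcam was at 0.0452 to 0.117 with class II and at -0.146 with Cd207. The points share their libraries, so that these values describe the libraries and carry no test. Over the 7 libraries without baseline butyrate replicate 3 the class II genes were still at 0.968 to 0.991 with each other, Ciita at 0.887 to 0.932, Cd86 at 0.933 to 0.975, Cd80 at 0.832 to 0.921 and Itgax at 0.744 to 0.847 with them. The sign of Cd207 turned, to -0.343 to -0.279 with class II, and Epcam was at 0.573 to 0.714. The positive value of Cd207 over the 8 libraries thus rested on that library. Among the 14309 listed genes outside the 10, tested or not, with a mean of at least 1 CPM, those most like the mean of the class II genes were Pkdcc (0.991), Cd274 (0.987), Plcb2 (0.986), Hhex (0.985) and Lat2 (0.984). Pkdcc was at 20.6 and 24.9 CPM in baseline CTL, 25.99 and 9.10 CPM in baseline butyrate, 30 and 31.9 CPM in lesional CTL, and 30.5 and 31.1 CPM in lesional butyrate skin. Those most like Cd207 were Kcmf1 (0.974), Gadl1 (0.964), 2310047M10Rik (0.961), Ifngr1 (0.952) and Hsd3b7 (0.95). Gadl1 was at 15.1 and 16.2, 19.3 and 1.76, 10.3 and 14.4, and 16.0 and 13.1 CPM in the same order of groups. These lists of likeness also rested on baseline butyrate replicate 3. Without it the 5 genes were at 0.886 to 0.934 with class II and at 0.716 to 0.896 with Cd207, and none of them was among the 5 highest, which were led by Penk (0.982) and by Zfp647 (0.979).

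The rest of the class II pathway was read from 18 genes, of which 17 were tested (H2-Eb2 was not). After HDM in CTL mice 0 were called, or 1 (Ctss) without baseline butyrate replicate 3, where 6.33% of all tested genes were called higher. In both lesional libraries 10 were higher, against 36.7% of all tested genes, and 3 lower, against 38.5%, with a median log2 fold change of 0.21. The most abundant were proteases that cut the invariant chain and antigen, and a thiol reductase. Cathepsin L (Ctsl) was at 298.7 and 334.8 CPM in baseline CTL and at 486.8 and 532.9 CPM in lesional CTL skin (log2 0.69, FDR 0.136, edgeR). Legumain (Lgmn) had 0.83 (FDR 0.395), cathepsin S (Ctss) 1.21 (FDR 0.321) and the reductase Ifi30 0.11 (FDR 0.777) in the same edgeR fit. In lesional butyrate against lesional CTL 0 were called with all libraries and 0 without baseline butyrate replicate 3, a fit that called 0.332% of all tested genes higher and 0.886% lower. Of the 17 genes 6 were higher in both libraries (22.4% of all tested genes) and 3 lower (22.5%), and the median was 0.09. Ctsl then had a log2 fold change of 0.09, Lgmn -0.87, Ctss -0.41 and Ifi30 0.12.

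The peptide loading genes H2-DMa, H2-DMb1 and H2-DMb2 stayed closer to baseline than the classical class II genes in lesional CTL skin, at log2 0.26, 0.21 and 0.42, and the difference from the classical genes was not tested. H2-DMa was at 33.0 and 37.4 CPM in baseline CTL and 44.2 and 40.4 CPM in lesional CTL skin. In baseline butyrate replicate 3 it was at 13.3 CPM. These 3 genes, named after their values were seen, are the loading machinery of MHC class II.

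Further Langerhans cell genes were read from a list of 14, which includes receptors and growth factors that other skin cells also make. In lesional CTL against baseline CTL skin 1 was called, against 2.37% of all tested genes called higher. The same gene was the 1 called without baseline butyrate replicate 3, against 6.33%. Ly75, the endocytic receptor DEC-205, was at 6.28 and 4.94 CPM in baseline CTL, 5.19 and 4.05 CPM in baseline butyrate, 15.3 and 14.5 CPM in lesional CTL, and 13.03 and 9.91 CPM in lesional butyrate skin. It rose by a log2 fold change of 1.41 with HDM (SE 0.25, FDR 0.0549, edgeR), and baseline butyrate replicate 3 was not far from the other baseline libraries. Another 2 genes of the list, Mfge8 (0.81, FDR 0.0373) and Tgfb1 (0.86, FDR 0.0555), passed the FDR in edgeR below the fold threshold and were named after their values were seen. TGF-β1 is needed for Langerhans cells to develop. Of the 14 genes, 10 were higher in both lesional CTL libraries (36.7% of all tested genes) and 2 lower (38.5%), with a median of 0.47. The 2 lower genes, Il34 and Id2, were also named after their values were seen. Il34 was at 55.7 and 49.2 CPM in baseline CTL, 25.6 and 26.95 CPM in lesional CTL, and 38.9 and 34.7 CPM in lesional butyrate skin. Id2 was at 64.7 and 61.3 CPM in baseline CTL and at 56.3 and 58.1 CPM in lesional CTL skin. In lesional butyrate against lesional CTL 0 were called in either fit, 2 were higher in both libraries (22.4% of all tested genes) and 8 lower (22.5%), and the median was -0.26.

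Genes of mature dendritic cells numbered 8, and 2 were called in lesional CTL against baseline CTL skin, against 2.37% of all tested genes called higher. There were 4 called (Ccr7, Pdcd1lg2, Fscn1 and Ccl22) without baseline butyrate replicate 3, against 6.33%. Ccr7, the receptor that guides dendritic cells to lymph nodes, was at 2.39 and 1.44 CPM in baseline CTL, 1.18 and 0.524 CPM in baseline butyrate, 7.90 and 7.52 CPM in lesional CTL, and 3.72 and 3.44 CPM in lesional butyrate skin. It rose by a log2 fold change of 2.01 with HDM (SE 0.43, FDR 0.0804, edgeR). Pdcd1lg2, the ligand PD-L2, was at 0.0556 and 0.278 CPM in baseline CTL, values around the floor, and at 2.24 and 1.66 CPM in lesional CTL skin (FDR 0.0734, edgeR). It was at 0.5074 and 0.1905 CPM in baseline butyrate and at 1.002 and 1.21 CPM in lesional butyrate skin. Of the 8 genes 7 were higher in both lesional CTL libraries (36.7% of all tested genes) and 1 lower (38.5%), with a median of 1.01. In lesional butyrate against lesional CTL all 8 fitted values were below 0 and 6 genes were lower in both libraries (22.5% of all tested genes), with a median of -0.36, while edgeR called 0 in either fit, with 1 at an unadjusted p below 0.05 in the fit of all libraries. T cells also carry Ccr7, and their list is given next.

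The partners of CD80 and CD86 on T cells were read with other costimulatory genes, 11 in all with 9 tested. In lesional CTL against baseline CTL skin 3 were called, against 2.37% of all tested genes called higher, and all 9 were higher in both lesional libraries (36.7%), with a median of 1.70. In the fit without baseline butyrate replicate 3, 10 of the genes were tested and 6 called (Icos, Pdcd1, Pdcd1lg2, Cd28, Ctla4 and Cd40lg), against 6.33%. Icos, a costimulatory receptor of activated T cells, was at 1.06 and 1.499 CPM in baseline CTL, 2.99 and 1.05 CPM in baseline butyrate, 33.25 and 17.7 CPM in lesional CTL, and 19.9 and 11.5 CPM in lesional butyrate skin (log2 4.31 with HDM, FDR 0.0397, edgeR). Pdcd1, the receptor PD-1, was at or under the floor in all 4 baseline libraries and at 4.22 and 2.82 CPM in lesional CTL skin (FDR 0.0728, edgeR). The third was Pdcd1lg2. This gene, Cd274 and Cd40 are also in the list of mature dendritic cell genes, so that the lists are not separate evidence. Cd28, the receptor of CD80 and CD86, was at 1.06 and 0.555 CPM against 4.80 and 2.63 CPM (FDR 0.172, edgeR), and its inhibitory counterpart Ctla4 at 2.45 and 2.61 CPM against 9.66 and 6.74 CPM (FDR 0.136, edgeR). Cd28 and Ctla4 were named after their values were seen.

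In lesional butyrate skin Cd28 was at 2.96 and 2.47 CPM and Ctla4 at 4.49 and 3.58 CPM. Of the 9 costimulatory genes, 5 were lower in both lesional butyrate libraries than in both lesional CTL libraries (22.5% of all tested genes) and 0 higher (22.4%), with a median of -0.53. edgeR called 0 in either fit, with 0 at an unadjusted p below 0.05 in the fit of all libraries. T cell genes summed to 87.3 and 45.3 CPM in lesional CTL and to 53.45 and 43.0 CPM in lesional butyrate skin, against 22.4 to 29.8 CPM in baseline libraries other than butyrate replicate 3, which had 9.91 CPM. Of the 7 T cell genes measured, Cd4 (log2 2.72, FDR 0.0791) and Lck (1.93, FDR 0.0696) were called higher with HDM in edgeR, against 2.37% of all tested genes. Without baseline butyrate replicate 3, 6 of the 7 were called, against 6.33%.

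Marker genes of other cells that carry class II were set beside these values. Conventional dendritic cell genes summed to 163.2 and 216.1 CPM in baseline CTL, 234.6 and 280.3 CPM in lesional CTL, and 180.6 and 251.8 CPM in lesional butyrate skin. Of the 11 genes in that list 6 were higher (36.7% of all tested genes) and 1 lower (38.5%) in both lesional CTL libraries, and 0 were called, or 3 (Cd209a, Flt3 and Itgae, against 6.33%) without baseline butyrate replicate 3. In lesional butyrate against lesional CTL 4 were higher (22.4%) and 5 lower (22.5%) in both libraries, with a median of -0.23 and 0 called in either fit. Macrophage genes summed to 968.1 and 1307 CPM in baseline CTL, 1714 and 1995 CPM in lesional CTL, and 920.3 and 1682 CPM in lesional butyrate skin. With HDM 0 of 12 were called, or 3 (Ccr2, Cd163 and Mrc1, against 6.33%) without baseline butyrate replicate 3. In both lesional CTL libraries 6 were higher (36.7% of all tested genes) and 1 lower (38.5%). In lesional butyrate against lesional CTL 9 of the 12 were lower (22.5%) and 0 higher (22.4%) in both libraries, with a median of -0.55 and 0 called in either fit. Neutrophil genes, which are not class II genes, went from 22.45 and 26.1 CPM in baseline CTL to 2806 and 1718 CPM in lesional CTL and to 795.6 and 366.0 CPM in lesional butyrate skin. With HDM 6 of 6 tested genes (S100a8, S100a9, Retnlg, Cxcr2, Csf3r and Mmp9) were called, against 2.37% of all tested genes called higher. In lesional butyrate against lesional CTL skin 3 of the 6 (Csf3r, Mmp9 and Retnlg) were called lower without baseline butyrate replicate 3, against 0.886% of all tested genes. In the fit of all libraries 0 were called. B cell genes summed to 0.429 to 1.18 CPM in all 8 libraries, with Ms4a1 and Pax5 at 0 in most of them. The part of each cell type in the class II values was not tested.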

How the data were processed

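RNA of dorsal skin was sequenced by the authors, aligned with STAR 2.5.2 to GRCm38 and counted per gene with featureCounts through RNASik, and the deposited values are raw counts of protein-coding genes, without normalization. The reference carries C57BL/6J alleles, which differ from BALB/c in the class II genes and could lower the share of their reads counted in all mice. Groups and replicates were taken from the labels, which give 8 samples here, and nothing besides the mouse separates replicates.

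CPM were calculated on TMM-scaled library sizes. edgeR 4.0.16 in R 4.3.3 (filterByExpr with a minimum count of 10, robust quasi-likelihood fit with 1 mean per group, prior count 0.125) was run on all 8 libraries and 15163 genes, with calls where the FDR (Benjamini-Hochberg) was below 0.1 and the change more than 2-fold. DESeq2 1.42.0 and limma-voom (limma 3.58.1) were alternatives, as were RLE and upper quartile scaling, no filter and a filter of 1 CPM in 4 libraries, only the compared groups, a prior count of 2, an FDR below 0.05, no fold threshold, and leaving out each library. Added after the data were seen were sample quality weights, fits without a fold threshold, and the correlations and list counts without baseline butyrate replicate 3. An exact permutation test of 2 against 2 mice cannot go below p = 0.333 and was not used. The script was tested on simulated counts. The 10 genes and the gene lists were chosen with earlier results of these data known. Named were all 10 genes, any called gene of the other lists, up to 4 examples by mean CPM, and the 5 genes most like class II and Cd207. Adgre1, Trac and H2-L of the lists were not analysed here. Coordinates are GENCODE vM21, and promoter sequences are RefSeq on GRCm38.p6. The series' design text counts more samples than the 8 analysed here.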

Additional observations from a re-analysis of the deposited data

How the results depend on the processing

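No paired analysis was possible because no 2 groups have more than 1 replicate number in common. With 2 mice per group the library left out decided more than the tool. DESeq2, edgeR with RLE or upper quartile scaling, both filters and a prior count of 2 changed no sign and no call of the 10 genes in any comparison, and the scalings moved the median of all tested genes by less than 0.02 on the log2 scale. The number of the 10 genes called after HDM in CTL mice was 1 (Cd80) with only the compared groups and 1 with limma-voom with sample quality weights, and 0 to 1 with each library left out. Without a fold threshold it was 9 with only the compared groups and 8 without baseline butyrate replicate 3. For HDM in butyrate-treated mice the count was 0 to 9 with each library left out, 9 without baseline butyrate replicate 1 and 1 without replicate 3, with or without the fold threshold. For butyrate at baseline it was 0 to 9, and for the difference between the butyrate effects 0 to 8, the highest without baseline butyrate replicate 1. Leaving out a lesional or baseline CTL library changed no count.

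Signs turned mostly with the baseline butyrate pair. For butyrate at baseline, the log2 fold changes with each library left out ranged from -1.95 to 0.12 for Cd207, -0.15 to 0.54 for Epcam, -1.61 to 0.29 for H2-Aa, -1.51 to 0.29 for H2-Ab1, -1.77 to 0.34 for H2-Eb1, -1.76 to 0.36 for Cd74, -1.76 to 0.51 for Ciita, -2.003 to 0.28 for Itgax, -1.98 to 0.72 for Cd80 and -1.49 to 0.62 for Cd86. For the difference between the butyrate effects they ranged from -0.38 to 1.52 for H2-Aa, -0.41 to 1.39 for H2-Ab1, -0.41 to 1.70 for H2-Eb1, -0.45 to 1.67 for Cd74, -0.69 to 1.58 for Ciita, -0.50 to 1.78 for Itgax, -1.27 to 1.43 for Cd80, -0.58 to 1.54 for Cd86 and -0.11 to 0.61 for Epcam, and for Cd80 the value was 0.093 with limma-voom and 0.15 with quality weights. Cd207 ranged from -0.12 to 1.95 for HDM in butyrate-treated mice, from -0.78 to 0.12 for HDM in CTL mice and from -0.12 to 0.77 for butyrate in lesional skin, the last 2 turning without lesional CTL replicate 4. Cd86 ranged from -0.052 to 0.13 for butyrate in lesional skin. The cause was not tested. Counts of 7 to 91 limit Cd80. The lowest count of the other 9 genes was 74, in baseline butyrate replicate 3.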

Other observations

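MHC class I presentation shows peptides to CD8 T cells. Of 10 measured genes 0 were called in lesional CTL against baseline CTL skin, with or without baseline butyrate replicate 3. In both lesional libraries 2 were higher (36.7% of all tested genes) and 3 lower (38.5%), and the median log2 fold change was -0.07. H2-K1 was at 688.9 and 691.0 CPM in baseline CTL and at 696.6 and 653.7 CPM in lesional CTL skin, and B2m at 1279 and 1174 CPM against 1192 and 1244 CPM. H2-D1 was higher in both lesional CTL libraries, at 997.2 and 970.1 CPM against 917.5 and 939.8 CPM in baseline CTL. Nlrc5, the class I counterpart of Ciita, was at 136.4 and 113.0 CPM in baseline CTL, 74.25 and 77.7 CPM in lesional CTL, and 114.4 and 100.2 CPM in lesional butyrate skin (log2 -0.71 with HDM, FDR 0.508, edgeR). In lesional butyrate against lesional CTL 6 of the 10 class I genes were higher (22.4% of all tested genes) and 1 lower (22.5%) in both libraries, with 0 called in either fit and a median of 0.17. The difference between class I and class II was not tested, and Nlrc5 was named after its values were seen.

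Of the interferon gamma response, 9 of 10 genes were tested. In lesional CTL against baseline CTL skin 1 was called, against 2.37% of all tested genes called higher. In both lesional CTL libraries 3 were higher (36.7% of all tested genes) and 4 lower (38.5%), with a median log2 fold change of -0.10. Socs1, an inhibitor of cytokine signalling, was called in lesional CTL against baseline CTL skin, at 5.06 and 4.83 CPM against 15.05 and 13.2 CPM (log2 1.51, FDR 0.045, edgeR). It was at 9.16 and 6.42 CPM in lesional butyrate skin. Ifng itself, also named after its values were seen, was at 0 to 0.167 CPM in all 8 libraries, at or under the floor of 3 counts.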
